A study of Rattus norvegicus with 8 samples.

Results

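The orexin and melanin-concentrating hormone (MCH) system of the rat hypothalamus is described here through its 5 genes, the peptide precursors Hcrt and Pmch and the receptors Hcrtr1, Hcrtr2 and Mchr1. Members were taken by gene name from the non-control spots of the arrays. They were 5 of the 19204 genes named on the arrays, and their 5 probes occupied 23 of 42877 spots. Hcrt and Pmch each had 1 probe printed on 10 spots, and each receptor had 1 probe on 1 spot. All 5 members passed the filter on dim probes, which asked for signal well above background in each of the 4 females, or in each of the 4 males.

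Total RNA came from the hypothalamus of Sprague Dawley rats (Taconic) aged 3 to 4 months, 4 females in estrus and 4 males, housed singly under 14 h of light and 10 h of dark. The series compared the sexes in hypothalamic gene expression, with genes of the cytoskeleton in view. Each of 4 arrays carried 1 female and 1 male in opposite dyes, with females in the green dye Cy3 on arrays 1 and 3 and in the red dye Cy5 on arrays 2 and 4. All females were in estrus, so sex and stage of the cycle cannot be told apart.

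Orexin neurons and MCH neurons are separate populations that lie side by side in the lateral hypothalamus and project through most of the brain. Orexin neurons fire during waking, sustain arousal and drive food seeking, and their loss causes narcolepsy. MCH neurons are most active in sleep, above all in REM sleep, and promote feeding and energy storage. Hcrt encodes prepro-orexin, which is cleaved to orexin A and orexin B. The orexin 1 receptor, Hcrtr1, prefers orexin A, while the orexin 2 receptor, Hcrtr2, binds both peptides and is the receptor of the histamine neurons of the posterior hypothalamus. Pmch encodes the MCH precursor, and Mchr1 is the only MCH receptor that rodents have.

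The probe sequences are shown because each gene was read through this 1 stretch alone. The Hcrt probe is printed whole, with the start codon of the coding sequence in capitals. The other 4 are printed over their first 30 of 60 bases. All run 5′ to 3′ as in the array files, and positions are those of the files on the rn4 build.
Hcrt probe A_42_P500675 (chr10:89700072-89700790, minus strand): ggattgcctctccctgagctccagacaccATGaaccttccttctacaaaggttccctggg
Pmch probe A_42_P527961 (chr7:24779263-24779322, plus strand): ctgctggtccacaacatcctttcagaagaa
Hcrtr1 probe A_64_P122247 (chr5:149160752-149160811, minus strand): acactctccatgcggccgttcggcatggag
Hcrtr2 probe A_44_P206844 (chr8:81068941-81069000, minus strand): gctgtgaattgtaacaggaattaactgcat
Mchr1 probe A_64_P101903 (chr7:119559542-119559601, plus strand): atactgagattaaacccaaggctaccctgg

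The 60 bases of the Hcrt probe lie within 719 bases of genome, so 659 genomic bases are skipped within it, and 29 of its bases come before the start codon. The other 4 probes match 60 uninterrupted bases each. The Hcrtr2 probe has the lowest share of G and C, at 36.7%, against 45.0% for Pmch and 55.0% for Hcrt, Hcrtr1 and Mchr1. No rn4 gene annotation was used here, so exon and UTR positions are not given for them.

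One library went against its tissue label. In the library labelled male replicate 2 the summed level of 8 measured hypothalamus markers was 6993 normalized units, against 94353 to 132987 in the other 7 samples. That sum is mostly Avp and Oxt. The median of the 8 log2 levels, each less the mean of the samples of the same dye, was -1.35 in that library and -0.08 to 0.51 in the others. Nkx2-1, a transcription factor that defines much of the hypothalamus, had a log2 level of 8.87 there and 11.12 to 11.48 elsewhere. Avp, the vasopressin gene, stood at 12.02 against 16.15 to 16.68. The 5 measured cortex and hippocampus markers went the other way, with a summed level of 44647 in that library, 7252 in female replicate 2 and 2367 to 3328 in the other 6 samples. The library labelled male replicate 4 was set apart by 1 choroid plexus gene, Ttr, at a log2 level of 16.49 against 10.92 to 13.78 elsewhere. Of the other choroid plexus markers, Clic6 was at 7.59 there and 6.86 to 7.13 elsewhere. Folr1 was at 9.48 there, below female replicate 2 at 9.55. Every member's sex difference is therefore given with and without array 2. Dye also moved the values. Median signals were 502 to 530 intensity units in Cy3 and 148 to 272 in Cy5. After loess over the whole array, a dye effect passed an adjusted p of 0.05 in limma at 12.7% of 21995 probes. It passed at 0 of them by the alternatives given below, the scanner software's log ratio and loess within blocks of rows. Signals are therefore compared within a dye, whereas ranges of normalized levels over all samples span both dyes. Within Cy5, median signals were 148 and 162 in female replicates 2 and 4 and 272 and 229 in male replicates 1 and 3. The Cy5 signals of the sexes thus also carry that difference in brightness. The 4 arrays set the limit to precision.

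**Figure D1:**
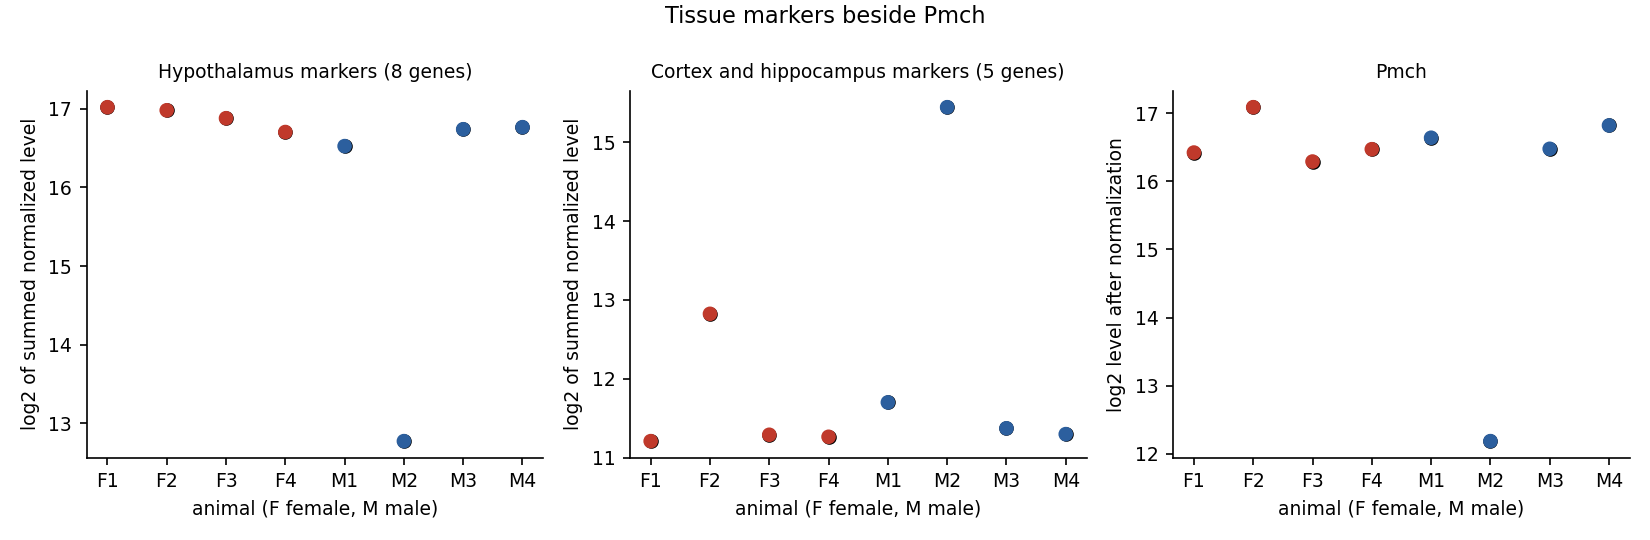
Each point is 1 animal (red, female; blue, male), on log2 axes. The summed normalized level of 8 hypothalamus markers, that of 5 cortex and hippocampus markers and the level of Pmch are shown side by side. The library labelled male replicate 2 is the lowest point for hypothalamus markers (6993 before the log) and for Pmch (12.19), and the highest for cortex and hippocampus markers (44647 before the log).

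Pmch gave a bright signal that was low in a single library. In Cy3, its signal above background was 114611 and 119091 intensity units in female replicates 1 and 3, 167086 in male replicate 4 and 7011 in the library labelled male replicate 2. In Cy5, it was 86009 and 54014 in female replicates 2 and 4 and 91027 and 67358 in male replicates 1 and 3. The library labelled male replicate 2 was thus far below every other sample of its dye, and the sexes overlapped in both dyes. After normalization the log2 level of Pmch was 12.19 in that library and lay between 16.29 and 17.09 in the other 7 samples.

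Within an array, the Pmch log2 ratio (female over male) was -0.22 on array 1, 4.90 on array 2, -0.19 on array 3 and -0.35 on array 4. On array 2 the ratio was 29.9-fold and the highest of all 21967 probes measured there. The next probes in that order were Avp at 4.62 and Cartpt at 4.57, 2 other peptide genes of the hypothalamus. On the other 3 arrays Pmch stayed within 1.27-fold and was lower in the female each time. Over the 8 animals its dye-centred level, the log2 level minus the mean of the 4 samples of the same dye, had a standard deviation of 1.44. That spread was larger than for 99.9% of probes.

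Hcrt was low in the same library, and among the other samples its males lay above its females of the same dye, in Cy3 by 1 male alone. In Cy5, its signal was 1377 and 1194 in female replicates 2 and 4 and 2941 and 2233 in male replicates 1 and 3. In Cy3, it was 3514 and 3593 in female replicates 1 and 3, 7242 in male replicate 4 and 718 in the library labelled male replicate 2. Both Cy5 males were above both Cy5 females, male replicate 4 was above both Cy3 females, and the library labelled male replicate 2 was below all. The library labelled male replicate 4, the highest for Hcrt, is the one with high Ttr. Its choroid plexus markers, almost wholly Ttr, summed to 93172 normalized units, against 2672 to 14784 in the others. The part of that in its Hcrt level was not tested. Normalized log2 levels placed the sexes in the same way. They were 11.34 and 11.14 in Cy5 females against 11.71 and 11.62 in Cy5 males, and 11.35 and 11.17 in Cy3 females against 12.26 in male replicate 4 and 9.16 in the library labelled male replicate 2.

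The log2 ratio of Hcrt was -0.36, 2.18, -0.45 and -1.12 on arrays 1 to 4. The female was thus 4.54-fold higher on array 2, where 73 of 21967 probes had a higher ratio. The male was 1.28-fold, 1.37-fold and 2.17-fold higher on arrays 1, 3 and 4. On array 4 Hcrt was in the lowest 0.978% of probes, with 214 probes below it. The standard deviation of its dye-centred level over the 8 animals was 0.87, a spread larger than for 99.3% of probes. In bulk RNA, fewer orexin or MCH neurons and less RNA per neuron cannot be told apart.

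**Figure D2:**
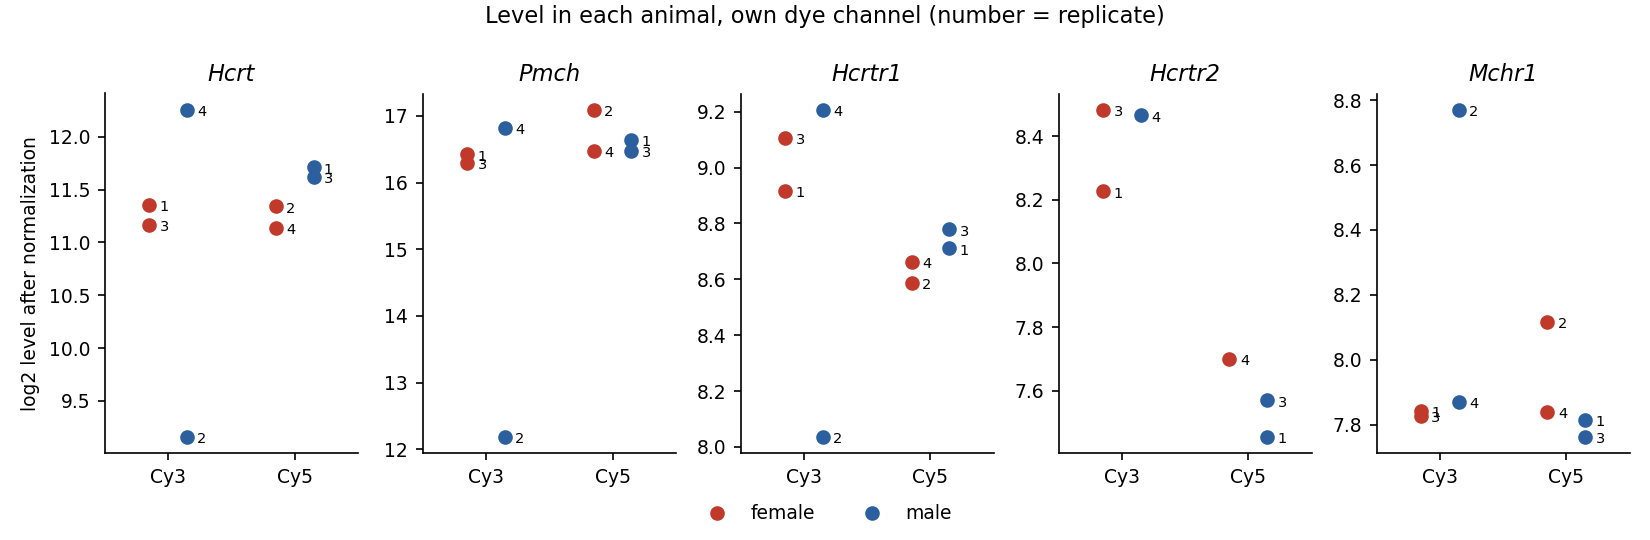
The normalized log2 level of each gene is plotted in its own dye channel, Cy3 left and Cy5 right, with females in red, males in blue and the replicate number beside each point. Male replicate 2 is the lowest point for Hcrt (9.16), Pmch (12.19) and Hcrtr1 (8.04) and the highest for Mchr1 (8.77), and Hcrtr2 has no point on array 2.

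The dye-centred levels of the receptor genes had standard deviations over 8 samples of 0.35 for Hcrtr1 and 0.32 for Mchr1. For Hcrtr2 it was 0.12 over 6 samples, without both animals of array 2. That value leaves out the library labelled male replicate 2, where Hcrtr1 was lowest and Mchr1 highest, so it cannot be set beside the others. Hcrtr1 had a Cy3 signal of 537 and 693 in female replicates 1 and 3, 712 in male replicate 4 and 218 in the library labelled male replicate 2. Its Cy5 signal was 149 and 153 in female replicates 2 and 4 and 277 and 240 in male replicates 1 and 3. In normalized log2 levels the Cy5 females, at 8.59 and 8.66, were just below the Cy5 males, at 8.71 and 8.78. The library labelled male replicate 2 was again the lowest, at 8.04 against 8.92 to 9.21 in the other Cy3 samples. Female over male, its log2 ratios were 0.21, 0.55, 0.33 and -0.54 on arrays 1 to 4.

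Mchr1 was the 1 member whose level was highest in the library labelled male replicate 2. Its Cy3 signal was 540 there, against 173 and 180 in female replicates 1 and 3 and 187 in male replicate 4. Its Cy5 signal was 62.4 and 65.9 in female replicates 2 and 4 and 108 and 82.1 in male replicates 1 and 3. The normalized log2 level was 8.77 in the library labelled male replicate 2 and 7.76 to 8.12 in the other 7 samples. In Cy5 the order of the sexes turned after normalization, with females at 8.12 and 7.84 and males at 7.82 and 7.76. The ratio was 0.03, -0.65, 0.06 and -0.03 on arrays 1 to 4, and array 2 stood apart. By the scanner software's log ratio it was 0.25, -1.71, 0.35 and -0.24, so that on arrays 1, 3 and 4 the sign followed the dye of the female. As background, Mchr1 is expressed widely in cortex and hippocampus as well as in the hypothalamus.

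Hcrtr2 was measured on 3 arrays. On array 2 its only spot was marked by the scanner software as non-uniform in both channels, and was left out as an outlier. That spot read 2304 intensity units in Cy3 and 571 in Cy5, against 263, 353 and 339 in the other Cy3 samples and 62.5, 65.6 and 51.2 in the other Cy5 samples. The ratio was 0.77 on array 1, 0.91 on array 3 and -0.77 on array 4, above 0 where the female carried Cy3 and below 0 where it carried Cy5. The dye term of the fit for Hcrtr2 was -0.80 on the log2 scale, with an adjusted p of 0.0328 in limma, and the sex term was 0.04 ± 0.09 (SE). Within a dye, its normalized log2 levels were 8.23 and 8.48 in Cy3 females against 8.47 in male replicate 4, and 7.70 in female replicate 4 against 7.45 and 7.57 in Cy5 males.

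**Figure D3:**
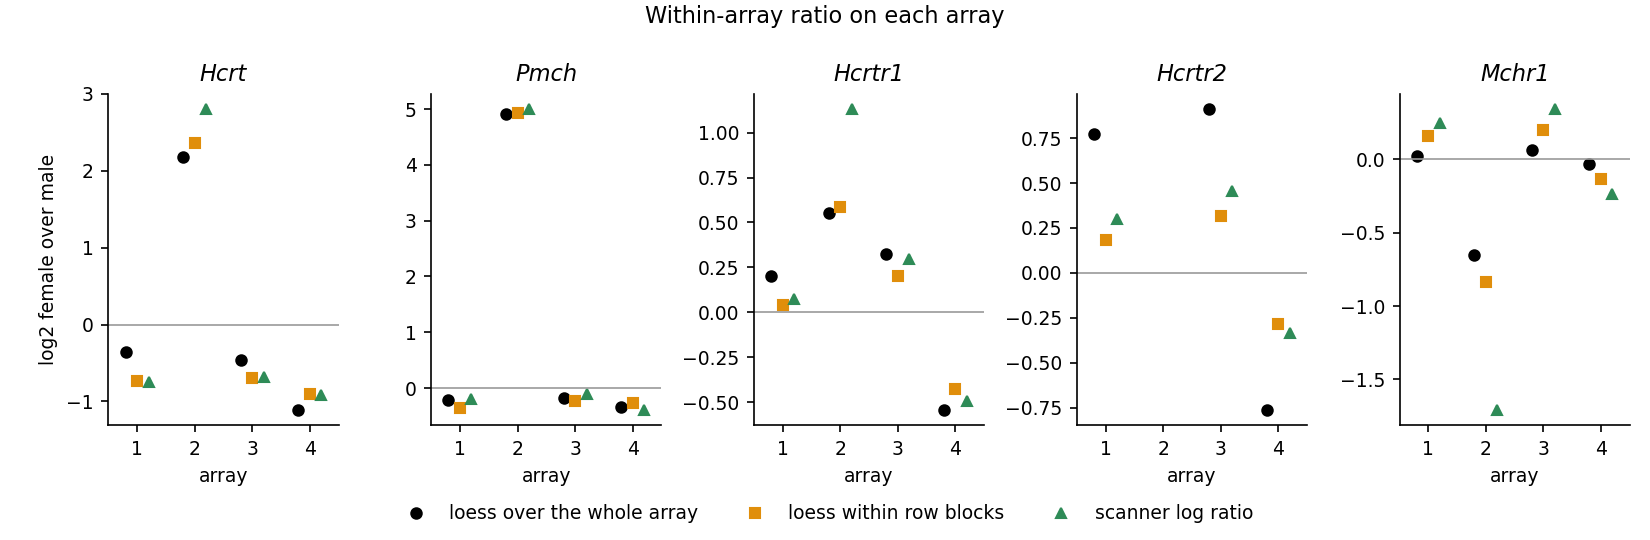
The log2 ratio of female over male is plotted for each gene on each array, after loess over the whole array (circles), after loess within 20 blocks of rows (squares) and as the scanner software's log ratio (triangles). Pmch stands at 4.90 to 5.01 on array 2 in all 3, Hcrt is below 0 on arrays 1, 3 and 4 in all 3, and Hcrtr2 moves towards 0 in the second and the third.

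With all arrays, 0 of the 5 members differed between the sexes in limma after adjustment (threshold 0.05), and before adjustment the count was also 0. Over all probes tested, 0% passed after adjustment and 8.5% before it, 4.98% with higher and 3.52% with lower levels in females. The fitted difference was above 0 for 4 of the 5 members and for 56.1% of probes. The dye-centred levels of females and males overlapped for all 5 members, and were free of overlap at 6.46% of probes. For Hcrt, the fitted difference, female minus male on the log2 scale, was 0.06 ± 0.57 (SE), with a 95% interval of -1.48 to 1.61 and an adjusted p of 0.968. For Pmch it was 1.04 ± 0.90, with an interval of -1.41 to 3.49 and an adjusted p of 0.648. Hcrtr1 stood at 0.13 ± 0.20, Hcrtr2 at 0.04 ± 0.09 and Mchr1 at -0.15 ± 0.12, with adjusted p of 0.778, 0.865 and 0.633 in limma. Hcrtr2 was fitted on arrays 1, 3 and 4 only, with 1 residual degree of freedom, from arrays 1 and 3, of 3.24 in all. Its standard error thus rests mostly on limma's prior over all probes and does not show a more precise value. That error was 0.39 with no dye term and 0.22 in the authors' value table, which keeps the array 2 spot. The intervals of the receptors were -0.40 to 0.67, -0.24 to 0.32 and -0.48 to 0.18. The receptor values moved with the processing and passed in none of these settings. Mchr1 was at -0.43 in the authors' value table, -0.34 by scanner log ratio and -0.28 with no background correction. Hcrtr1 was at 0.25 by scanner and 0.23 with no background correction. Hcrtr2 was at 0.31 with no dye term, 0.17 with the array 2 spot kept, 0.11 with no background correction, 0.10 in the authors' value table and 0.07 with median centring. A p above the threshold does not show equal levels, and the intervals of both peptide genes reach beyond 1 log2 unit either way.

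Without array 2, the signs of Hcrt, Pmch, Hcrtr1 and Mchr1 turned. Hcrt was then lower in females by 0.76 on the log2 scale, a ratio of -0.76 ± 0.07 with a 95% interval of -0.96 to -0.56, or 1.69-fold higher in males. It had the rank 15 of 21851 probes by p and an adjusted p of 0.566 in limma. Pmch stood at -0.28 ± 0.07 with an adjusted p of 0.598. These 2 of 5 members had an unadjusted p under 0.05 with lower levels in females, as did 3.82% of all probes, while 7.99% had one in either direction. Hcrtr1 was at -0.14 ± 0.07, Hcrtr2 at 0.04 ± 0.08 and Mchr1 at 0.0069 ± 0.07. In that fit array 4 was the only array with the female in Cy5, and the library labelled male replicate 4, whose Ttr level stood apart, was its male. The fit left 1 residual degree of freedom, from arrays 1 and 3, of 3.94 in all, so the standard errors, 0.07 to 0.08 for all 5 members, rest mostly on limma's prior over all probes. With only the library labelled male replicate 2 left out, in a fit of separate channels, Hcrt stood at -0.65 (adjusted p = 0.435) and Pmch at -0.05 (adjusted p = 0.933).

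Without array 4 the estimates for Hcrt and Pmch were above 0 and passed the threshold. Array 2 was then the only array with the female in Cy5, and Hcrt was higher in females by 0.89 (adjusted p = 0.0316) and Pmch by 2.35 (adjusted p = 0.0309) in limma. In that fit 1479 probes passed, or 6.78% of those tested. Hcrtr1 stood at 0.41 (adjusted p = 0.0589) and Mchr1 at -0.30 (adjusted p = 0.0816). The residual degree of freedom of that fit came from arrays 1 and 3, where Hcrt read -0.36 and -0.45 and Pmch -0.22 and -0.19. Array 2, at 2.18 for Hcrt and 4.90 for Pmch, was fitted exactly, and its male was the library labelled male replicate 2. The distance of array 2 from the other arrays is thus not in these p-values. For Hcrtr2, leaving out array 1, 3 or 4 left no fit with both a sex and a dye term.

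**Figure D4:**
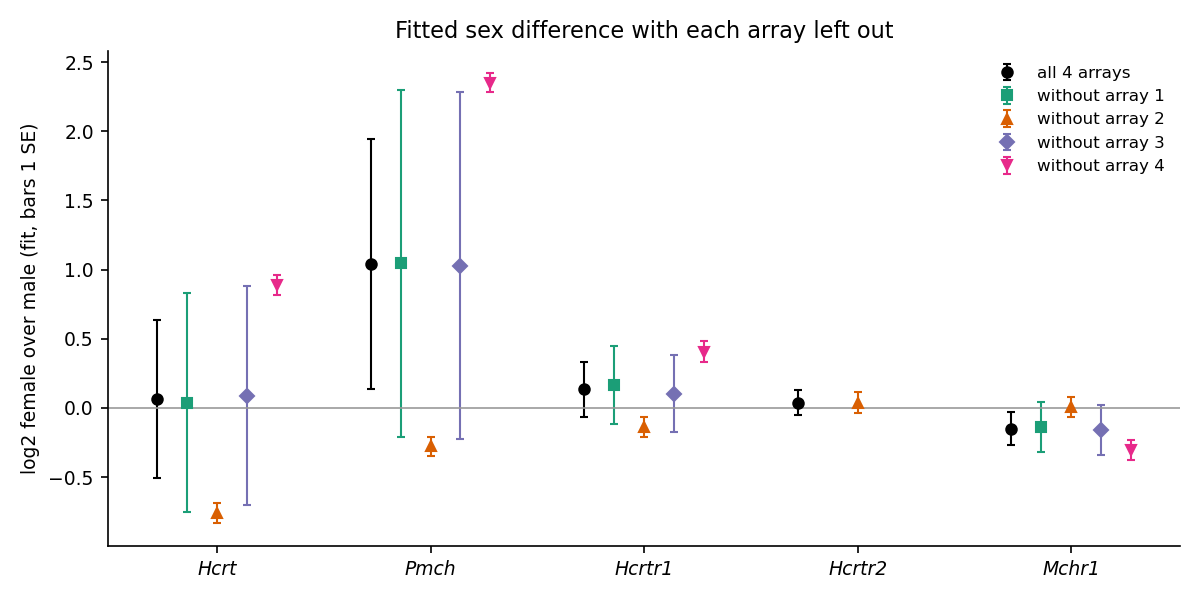
Points are fitted log2 ratios of female over male with bars of 1 SE, for all 4 arrays and with each array left out. Hcrt and Pmch lie at -0.76 and -0.28 without array 2 and at 0.89 and 2.35 without array 4. Hcrtr2 could be fitted with all arrays and without array 2, and both fits used its ratios on arrays 1, 3 and 4.

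Position on the array moved the ratio of red over green. The 10 spots of Hcrt, spread over rows 25 to 512 of 532, differed by 1.23 on array 1, 1.02 on array 2, 1.04 on array 3 and 0.88 on array 4 on the log2 scale. The ratio rose with the row of the spot, with a correlation over the 10 spots of 0.89 to 0.93 on the 4 arrays. Pmch, on rows 98 to 495, had a smaller range of 0.35 to 0.55 and correlations of 0.84 to 0.95. The same spots of Hcrt were high on every array, with correlations between arrays of 0.94 to 0.99. These points share their place on the array, and the correlations are descriptions.

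The gradient was not particular to these probes. Over all spots the median log2 red over green in rows 1 to 60 was -0.61, -0.22, -0.49 and -0.43 on arrays 1 to 4, and in rows 481 to 532 it was 0.13, 0.08, 0.15 and 0.11. Among tested probes with 10 spots the ratio rose with the row for 99.1% to 99.8%. Averaging the 10 spots of Hcrt and of Pmch spans the gradient, whereas each receptor was read at 1 place. The averages of Hcrt and Pmch nevertheless moved with a correction for rows, as given below. The Hcrtr2 spot lay in row 13, the Hcrtr1 spot in row 162 and the Mchr1 spot in row 485. In the scanner software's log ratio the median lay between -0.04 and 0.00 in both of those row ranges on the 4 arrays, the range over the Hcrt spots was 0.15 to 0.25, and that over the Pmch spots was 0.35 to 0.42 with red lower at higher rows.

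**Figure D5:**
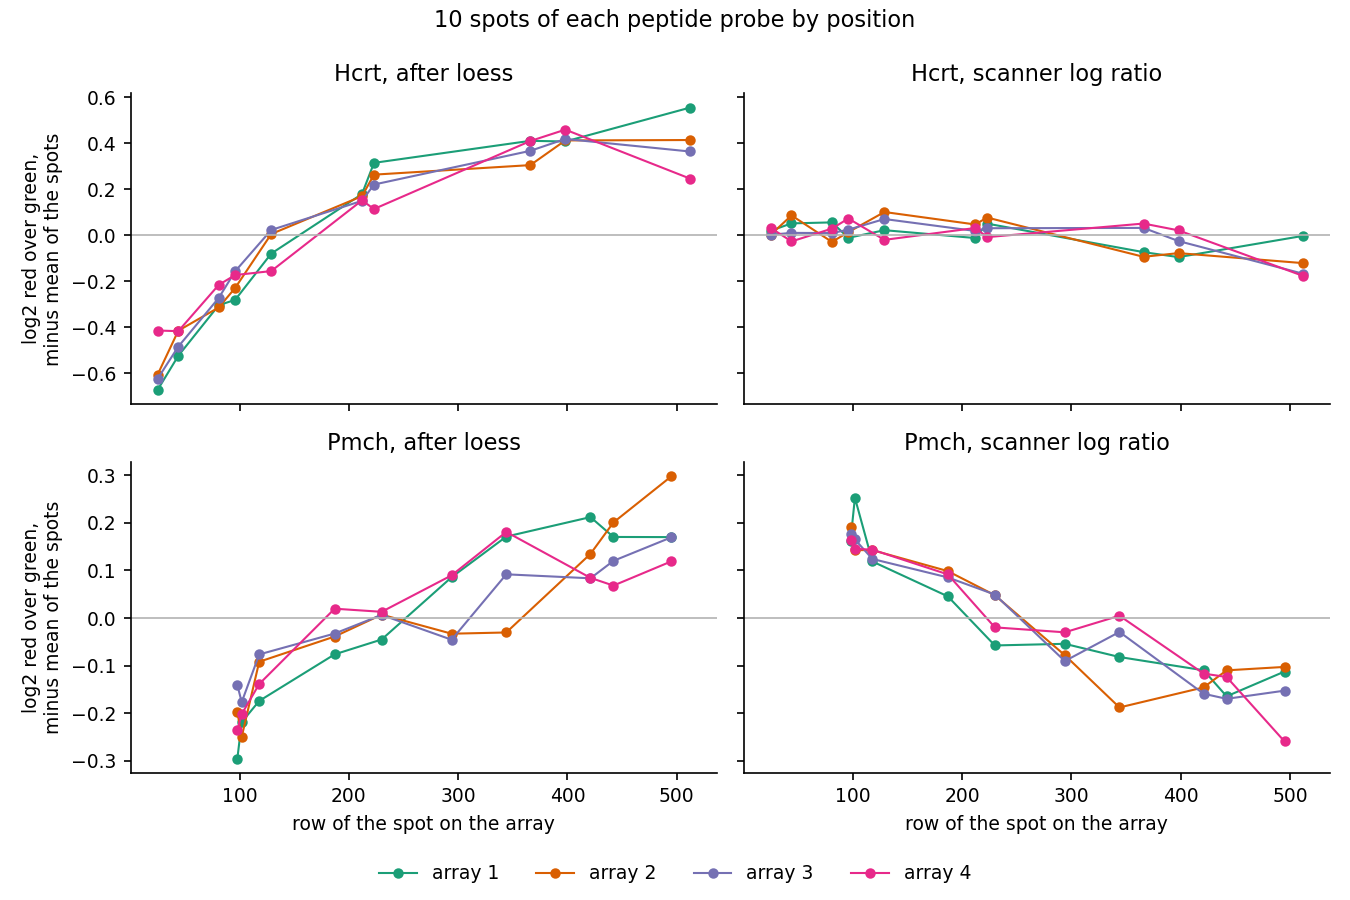
The log2 red over green of each of 10 spots, less the mean of the 10 on that array, is plotted against the row of the spot, with 1 line per array. After loess over the whole array the Hcrt spots span 0.88 to 1.23 and are higher at higher rows on all 4 arrays. In the scanner software's log ratio they lie within 0.15 to 0.25 of each other, and the Pmch spots span 0.35 to 0.42 and are lower at higher rows.

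The gradient touched the member ratios as follows. With a further loess within 20 blocks of rows, an alternative chosen after the gradient was seen, the Hcrt ratio was -0.73, -0.69 and -0.90 on arrays 1, 3 and 4. The scanner software's log ratio gave -0.74, -0.68 and -0.92. The male was then 1.66-fold, 1.61-fold and 1.86-fold higher by blocks of rows, a narrower range than after loess over the whole array. On array 2 the Hcrt ratio was 2.36 by blocks of rows and 2.81 by scanner. The Pmch ratio by blocks of rows was -0.37, 4.93, -0.23 and -0.27 on arrays 1 to 4. Without array 2, Hcrt stood at -0.80 ± 0.06 by blocks of rows (rank 7 of 21851 by p, adjusted p = 0.504) and at -0.82 ± 0.08 by scanner (rank 67, adjusted p = 0.458), both in limma. The order of the sexes for Hcrt outside array 2 was thus the same in all 3, and none passed the threshold.

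Hcrtr2, read near the first rows, was altered by the correction on each of its 3 arrays. Its ratios on arrays 1, 3 and 4 fell in size to 0.18, 0.31 and -0.29 by blocks of rows and were 0.30, 0.46 and -0.34 by scanner. Its dye term was -0.27 (adjusted p = 0.348) and -0.36 (adjusted p = 0.414) in limma. In both, 0 of 21995 probes had a dye effect past the threshold, against 2797 after loess over the whole array. The sex term of Hcrtr2 was -0.02 by blocks of rows and 0.02 by scanner. For Mchr1 the ratio by blocks of rows was 0.16, -0.84, 0.20 and -0.13 on arrays 1 to 4, larger in size than after loess over the whole array on each of them. For Hcrtr1 on array 2 it was 0.59 by blocks of rows and 1.13 by scanner.

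Members were compared with each other over animals by dye-centred levels, with exact two-sided permutations within each dye and Benjamini-Hochberg adjustment over 10 pairs. The permutations treat the samples of a dye as exchangeable. They take no account of the array that each female shares with a male, which limits these p-values. Hcrt and Pmch had a Pearson r of 0.93 and a Spearman rho of 0.88 over 8 samples (exact permutation p = 0.0434 and 0.0365, adjusted p = 0.145 and 0.174). Without the libraries labelled male replicates 2 and 4, the farthest from the median, r was 0.49, so the higher value leans on those samples. Levels were not centred again after samples were left out. Each r without samples, here and for the pairs below, therefore still carries their part in the dye means. Hcrt and Hcrtr1 had an r of 0.95 and a rho of 0.86 (exact permutation p = 0.0278 and 0.0521, adjusted p = 0.139 and 0.174), and r was 0.56 without the same samples. Hcrtr1 and Mchr1 ran in opposite directions, with an r of -0.95 and a rho of -0.93 (exact permutation p = 0.0278 and 0.0365, adjusted p = 0.139 and 0.174). That r was -0.85 without those samples. None of the 10 pairs passed after adjustment. The 4 Hcrtr2 pairs used 6 samples, with r between -0.07 and 0.34.

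Of 8 genes listed for orexin neurons, 6 were measured, 4 with a fitted ratio above 0. Before adjustment 0 of them had a p under 0.05. Their median was 0.23, against 0.02 over 14603 genes. Slc17a6, the vesicular glutamate transporter that orexin neurons use, had a log2 ratio of 2.50 on array 2 and -0.18 to 0.09 on the others. Pdyn, whose dynorphin is released together with orexin, read -0.30, 0.86, -0.13 and 0.30, with a fitted ratio of 0.18 ± 0.12. Igfbp3, an orexin neuron marker, was at 0.27 ± 0.20. Without array 2 the list's median was 0.01, with Slc17a6 at -0.02, Pdyn at 0.04 and Igfbp3 at 0.11.

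Genes named for MCH neurons had 5 of 5 fitted ratios above 0, as did 56.2% of all genes, and 1 had an unadjusted p under 0.05. This was Tacr3, the neurokinin 3 receptor, at 0.04, 1.60, 0.26 and 0.68 on the 4 arrays, with a fitted ratio of 0.64 ± 0.17 and an adjusted p of 0.555 in limma. Without array 2 it stood at 0.41 ± 0.08 (adjusted p = 0.598). Cartpt, a peptide gene expressed by a large share of MCH neurons, read 4.57 on array 2 and -0.46 to -0.12 on the others. Its fitted ratio was 0.93 ± 0.84, and -0.29 ± 0.10 without array 2. Gad2, which makes GABA, was at 0.11 ± 0.13. The list's median was 0.11, and -0.05 without array 2.

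Other genes of the lateral hypothalamus, most of them for peptides, had the largest median of the 7 lists, 0.67, with 4 of 6 fitted ratios above 0 and 0 at an unadjusted p under 0.05. Trh, thyrotropin-releasing hormone, was at 1.14 ± 0.64, Tac1, the substance P precursor, at 0.73 ± 0.41 and Penk, proenkephalin, at 0.62 ± 0.30. Trh read 3.76 on array 2 and 0.07 to 0.48 on the others. Trh, Penk and Gal, the galanin gene, which is named here after its values were seen, were above 0 on 4 of 4 arrays, as were 5.24% of probes. The list's median was 0.13 without array 2.

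Histamine neurons, a main target of orexin through Hcrtr2, were represented by 6 measured genes. All 6 had a fitted ratio above 0, as did 56.2% of all genes. Their median was 0.03, with 0 at an unadjusted p under 0.05 in limma. Hdc, the enzyme that makes histamine, had a ratio of 3.09 on array 2 and -0.35 to 0.46 on the others. Slc18a2, which loads amines into vesicles, was at 0.13 ± 0.24, and Hnmt, which degrades histamine, at 0.04 ± 0.08. Without array 2, 3 of the 6 were above 0, with a median of 0.03, and Hdc stood at 0.07 ± 0.07. The arcuate genes of energy balance had 4 of 6 ratios above 0 and a median of 0.09, with Agrp at 0.71 ± 0.61, Pomc at 0.63 ± 0.55 and Glp1r at 0.11 ± 0.07. Without array 2 that median was -0.05.

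Genes of the signalling steps below the receptors had 11 of 13 fitted ratios below 0 and a median of -0.14, while 6394 of 14603 genes were below 0. An unadjusted p under 0.05 was found for 1 of the 13, near the share of 8.52% over named genes. Gnai1, an inhibitory G protein subunit of the kind that MCHR1 couples to, read -0.57, -1.09, -0.69 and -0.39 on arrays 1 to 4. Its fitted ratio was -0.69 ± 0.14 with an adjusted p of 0.555, and -0.51 ± 0.07 without array 2 (adjusted p = 0.598), both in limma. It was below 0 on 4 of 4 arrays, as were 5.8% of probes. Plcb1 and Plcb4, phospholipases downstream of Gq, to which orexin receptors couple, were at -0.66 ± 0.33 and 0.22 ± 0.10. Plcb1 was -2.36 on array 2, and its fitted ratio was -0.18 without that array. The list's median was -0.06 without array 2. The summed level of these 13 genes was 295815 in the library labelled male replicate 2 and 174467 to 206332 in the other samples.

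The enzymes that cut and finish peptide precursors had a median of 0.06, with 4 of 6 ratios above 0 and 0 at an unadjusted p under 0.05. Pcsk2, the prohormone convertase that releases many hypothalamic peptides, was at -0.47 ± 0.20, Cpe, which trims the cut ends, at -0.35 ± 0.24 and Pam, which amidates peptides, at 0.32 ± 0.28. Pcsk2 and Cpe were at -1.52 and -1.50 on array 2, opposite in sign to Pmch and Hcrt there, and Pam was at 1.86. Without array 2 the median over the 5 genes that could be fitted was -0.07. For all 7 lists the library labelled male replicate 2 is the sample whose tissue markers stood apart, and the part of that in the array 2 ratios was not tested.

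The genes whose dye-centred level was most like that of the peptide genes over the 8 samples were drawn from 14484 genes. For Hcrt they were Gabrg1, a GABA-A receptor subunit, at r = 0.99, Dnm3, a dynamin, at 0.99, the mismatch repair gene Mlh3 at 0.98, Wdfy1 at 0.97 and Hes6 at 0.97. For Pmch they were Unc119, Plppr3, Tmem117, the quinolinate-degrading enzyme gene Qprt and the adenylyl cyclase Adcy8, with r of 0.99 to 1.00. The median r over all genes was 0.04 for Hcrt and 0.06 for Pmch, and 201 and 622 genes had an r above 0.9. All 10 genes were lowest in the library labelled male replicate 2 and highest in male replicate 4, so these values share those points. Pmch itself came at rank 69 for likeness to Hcrt, and Hcrtr1 at rank 28.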

How the data were processed

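Per the submitters' processing notes, the arrays were read with Agilent Feature Extraction 10.7.3.1. Mean spot signals and local background are, per the file headers, intensity values as scanned, and the scanner log ratio is a log10 of processed red over green, after the software's own detrending. The log2 values of the authors' deposited table equal, within 0.01 for 100% of values, the logarithm of median signal minus background less 1 constant per sample (column medians 0). Columns of other samples numbered 0.

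The 2 files of an array were identical, which pairs each female with the male of its replicate number. The array is the block of the fit. Dye-centred deviations of the 2 animals from their sex's mean correlated across probes at 0.61, 0.68, 0.46 and -0.08 on arrays 1 to 4. Centring by dye and by sex itself ties the females of arrays of the same dye orientation to their males. These values are therefore a description and no check of the pairing. Mean signals were corrected with normexp (offset 50) and normalized by loess in limma 3.58.1 (R 4.3.3), with controls at weight 0. Outlier spots were dropped before averaging over the spots of each probe. The filter required, in each of the 4 females or each of the 4 males, that a share over 0.5 of a probe's spots be well above background, and a gene was read by its brightest kept probe. Log2 ratios, female over male, entered lmFit and eBayes with sex and dye terms, and adjusted by Benjamini-Hochberg over 21995 probes (threshold 0.05). Levels were scaled between arrays by Aquantile. Names came from accessions matched to current RefSeq symbols for 17328 probes and from the files for 5371, and 7668 had none. Fits were tested on simulated data.

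Members, gene lists and tests were chosen with earlier results of these data known. Named genes were the members, up to 3 genes with the smallest p of each list and the 5 genes most like Hcrt and Pmch. Alternatives were other background corrections, scalings, filters, priors and sources of the ratio, no dye term, separate channels, and leaving out each replicate. Those with a further loess within 20 blocks of rows, with separate channels without male replicate 2, or combining 2 choices were added after the data were seen. The series' design names 4 males and 4 females. The p-values of the ratio fits measure the spread between array ratios of the same dye orientation, together with limma's prior over all probes. An array that is the only one of its dye orientation in a fit adds nothing to that spread. Figures used matplotlib 3.10.9 under Python 3.11.15.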

Additional observations from a re-analysis of the deposited data

Results flagged for a closer look

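Of 33 sets of 4 values examined, over members and named list genes, 6 held 1 value far from the other 3 by Dixon's criterion, which chance meets in about 1 in 20 sets. All 6 involved array 2. The Pmch ratio was 4.90 on array 2, against -0.35 to -0.19 on the others, and the Mchr1 ratio was -0.65, against -0.03 to 0.06. The dye-centred log2 level of Mchr1 in males was 0.69 in the library labelled male replicate 2, against -0.21 to -0.07. The ratios of 3 list genes stood apart on array 2 in the same direction as Pmch: Cartpt at 4.57 (others -0.46 to -0.12), Trh at 3.76 (others 0.07 to 0.48) and Slc17a6 at 2.50 (others -0.18 to 0.09). In the same library hypothalamus markers summed to 6993 and cortex and hippocampus markers to 44647, and their part in these values was not tested.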

How the results depend on the processing

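With separate channels and no replicate block, the 5 members kept their sign and 0 probes passed. Hcrt was then at 0.06 ± 0.61 and Pmch at 1.04 ± 0.92. Median centring turned Hcrt to -0.0078. Leaving out 1 replicate moved Hcrt between -0.76 and 0.89, Pmch between -0.28 and 2.35, Hcrtr1 between -0.14 and 0.41 and Mchr1 between -0.30 and 0.0069, and the probes called between 0 and 1479. The lower bounds of Hcrt, Pmch and Hcrtr1 and the upper bound of Mchr1 came without replicate 2, and the opposite bounds and the calls without replicate 4. With separate channels and the library labelled male replicate 2 left out, Hcrt was at -0.65, Pmch at -0.053, Hcrtr1 at -0.15 and Mchr1 at 0.10. With loess within blocks of rows, Hcrtr2 turned to -0.019. With blocks of rows and no replicate 2, Hcrt, Pmch, Hcrtr1, Hcrtr2 and Mchr1 were at -0.80, -0.29, -0.15, -0.019 and 0.023. With blocks of rows and no replicate 4, Hcrt was at 0.82 and Pmch at 2.32, with 2296 probes called. By scanner log ratio, Hcrt, Pmch, Hcrtr1 and Mchr1 were at -0.82, -0.27, -0.15 and 0.032 without replicate 2. Without replicate 4 they were at 1.05, 2.43, 0.66 and -0.71, all past the threshold, with 3275 probes called. The relation of Hcrtr1 and Hcrtr2 was 0.34 and turned to -0.71 in the authors' value table, which keeps the array 2 spot. Members passed the threshold only in settings without replicate 4, where array 2 was the only array with the female in Cy5 and was fitted exactly. The cause of the turns was not tested. Hcrtr2 could not be fitted without replicate 1, 3 or 4, which leaves no residual degree of freedom or 1 dye orientation only. Few arrays limit all of these values, and the receptors' single spots limit theirs further.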
